A study of Mus musculus with 12 samples.

Results

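Translation initiation factors were followed through the terminal end buds and mature ducts of the pubertal mouse mammary gland. They were taken as all probes whose platform gene symbol begins with Eif and a digit, which gave 59 of the 17589 probes and 40 of the 12913 genes on the array. The name rule also takes in kinases and binding proteins that act on the factors, and Eif4a3, a helicase of the exon junction complex. All 59 probes had values on all 12 arrays, and no filter on low signal was applied.

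Terminal end buds, the bulbous growing tips of the ductal tree, were hybridised on 6 arrays, and mature ducts, the tubes left behind the tips, on another 6. Each array carried the epithelial RNA in Cy5 and RNA of distal stroma, the fat pad that holds no epithelium, in Cy3, with no dye swap in the labels. All tissue was microdissected from glands of mice 5 weeks old that carried a B-actin-GFP reporter, which lights up the tissue for dissection and was shared by all groups, and the sources used here give neither sex, strain nor the number or pooling of animals. Every value is therefore a log ratio of epithelium to stroma, taken as log2, and positive values mean more signal in the epithelium. Natural logarithms are possible too and would change sizes but no sign or p-value. A probe was called at an adjusted p under 0.05 in limma, with Benjamini-Hochberg adjustment over all 17589 probes, and since no label ties arrays to separate animals, these p-values measure only the spread between arrays.

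Initiation is the step at which a ribosome is brought to an mRNA and finds its start codon. The eIF4F group binds the cap and unwinds the leader, the many-subunit scaffold eIF3 joins it to the small ribosomal subunit, and eIF2 delivers the initiator tRNA, with eIF2B recharging eIF2 with GTP and eIF2 kinases blocking that exchange under stress. The step is known for its link to growth. When mTORC1 signalling phosphorylates the eIF4E-binding proteins, they free the cap-binding factor eIF4E to join the scaffold of eIF4F.

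Against distal stroma the factors were called higher more often than lower in terminal end buds. Read from 1 probe per gene, 24 of 40 genes were called in terminal end buds, 17 higher (42.5%) and 7 lower (17.5%). Of all probes 43.6% were called, 23.2% higher and 20.4% lower, so the lower share lay near the background. The median log2 ratio of the 40 genes was 0.13 in terminal end buds, against 0.01 for all genes. In ducts 12 genes were higher and 6 lower than stroma, or 30.0% and 15.0%, where 28.2% of all probes were called, 16.0% higher and 12.2% lower. The median was 0.10 in ducts, against 0.01 for all genes. Between the structures 7 genes passed with terminal end bud above duct and 7 with terminal end bud below it, 17.5% each way, where 18.7% of all probes were called, 8.32% higher and 10.4% lower. The arrays of the structures did not overlap in 10 of the 40 genes, 5 higher and 5 lower in terminal end buds, against 10.2% of all probes (4.42% higher and 5.79% lower). All 6 terminal end bud arrays lay above stroma in 15 genes and below it in 5, where 40.9% of all probes lay on 1 side (21.8% above and 19.1% below). All 6 duct arrays lay above stroma in 14 genes and below it in 6, where the background was 31.9% (18.0% above and 13.9% below). Stroma was only ever the common partner of the ratio, so it was counted as 1 control sample shared by both structures. Its own spread is left out, and the sources used here do not say whether its RNA was 1 pool.

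**Figure D1:**
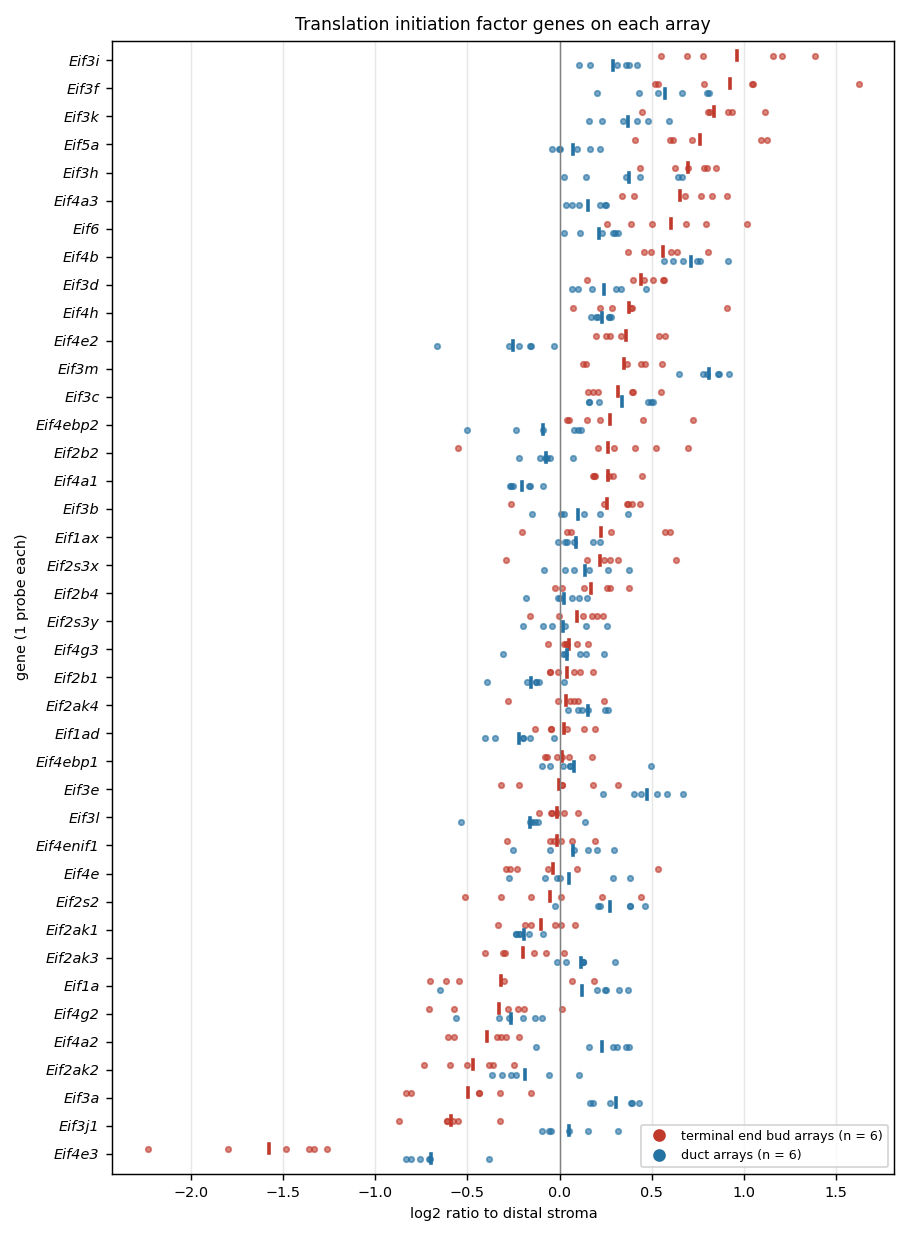
Log2 ratio to distal stroma of the 40 initiation factor genes (rows, 1 probe each) on the 6 terminal end bud arrays (red, upper line of each row) and the 6 duct arrays (blue, lower line). Small points are arrays and upright bars are group means. Eif3i, Eif3f and Eif3k head the list in terminal end buds, and Eif4e3 stands alone at the low end in both structures.

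The DEAD-box helicases of eIF4F, Eif4a1 and Eif4a2, went opposite ways. Eif4a1 read 0.18, 0.23 and 0.45 as the lowest, median and highest terminal end bud array, against -0.27, -0.21 and -0.09 among duct arrays. Every terminal end bud array thus lay above stroma and every duct array below it, and the groups did not overlap. The difference of 0.46 (SE 0.07, adjusted p = 0.000438) corresponds to 1.38-fold. Eif4a2 is one of 10 genes that this array carries on 17 spots each, so it accounts for 17 of the 59 probes, and the sources used here do not say whether its spots hold 1 probe sequence. The mean over its 17 spots was -0.53 to -0.24 on terminal end bud arrays, against 0.04 to 0.39 on duct arrays. It was 0.17 and 0.04 on duct replicates 1 and 2, nearer to stroma than the 0.28 to 0.39 on duct replicates 3 to 6. Of the 102 single readings in terminal end buds 100 were below 0, and of the 102 in ducts 95 were above 0. All 17 spots were called lower in terminal end buds than in ducts, by -0.84 to -0.45 (adjusted p between 1.15e-05 and 0.00585), and 14 of them had arrays of the structures that did not overlap. Against stroma 16 spots were lower in terminal end buds and 14 higher in ducts. These spots share a gene and an RNA sample and are not replicates of a condition.

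**Figure D2:**
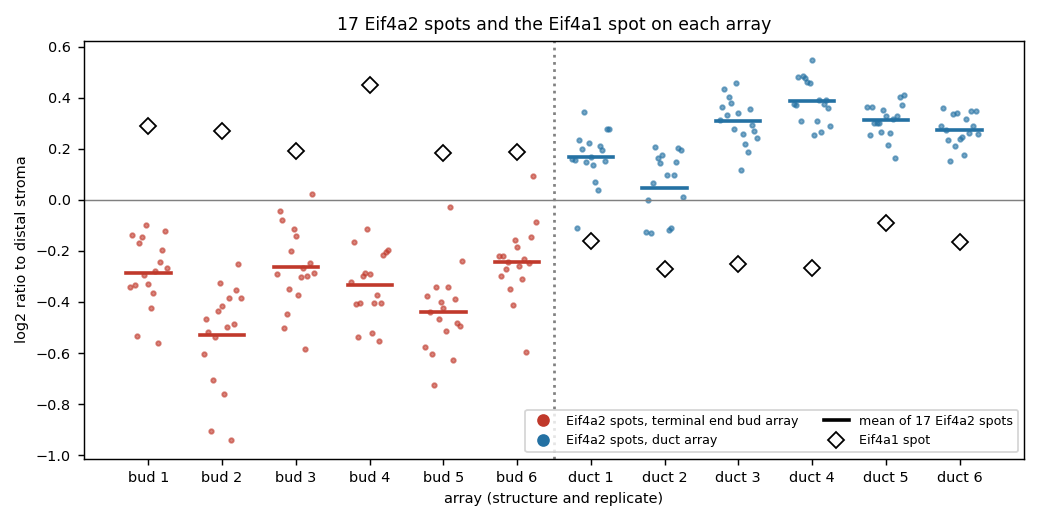
Log2 ratio to distal stroma of the 17 Eif4a2 spots (points; bars, their mean) and of the single Eif4a1 spot (diamonds) on each terminal end bud array (left, red) and duct array (right, blue). Eif4a2 means lie between -0.53 and -0.24 in terminal end buds and between 0.04 and 0.39 in ducts, and Eif4a1 lies on the other side of 0 on every array.

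The repeated spots give the spread between spots of 1 gene, which may hold differences between probe sequences as well as technical spread. On 1 array the SD between the 17 Eif4a2 spots was 0.06 to 0.20, with a median of 0.13 over the 12 arrays. The SD of the spot mean between arrays was 0.11 in terminal end buds and 0.12 in ducts. The spread between spots was thus about as wide as that between arrays, and the gap between the structures, with a mean over all spots of -0.35 in terminal end buds and 0.25 in ducts, was wider than either. The median SD between spots was 0.16 for Gapdh and 0.32 for Rpl5, which were also spotted 17 times.

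Being called on opposite sides of stroma was rare on this array, at 0.989% of all probes (0.154% higher and 0.836% lower in terminal end buds). Among the 40 genes 4 were so called, Eif4a1 and Eif4e2 with the terminal end bud above stroma, and Eif4a2 and Eif3a with the terminal end bud below it. Of the Eif4a2 spots 13 of 17 met that rule. Eif4e2, also known as 4EHP, binds the cap without the eIF4G scaffold and acts as a repressor. Its readings were 0.20, 0.30 and 0.57 (lowest, median, highest) in terminal end buds, against -0.67, -0.19 and -0.03 in ducts. No terminal end bud array overlapped a duct array, and the difference was 0.61 (SE 0.11, adjusted p = 0.00128). Eif4e2 in ducts (adjusted p = 0.0251) was no longer called against stroma without duct replicate 3 or 4 (adjusted p up to 0.0834). The Eif4a2 spot read for the gene also lost its duct call (adjusted p = 0.0291) without duct replicate 3, 4, 5 or 6 (adjusted p up to 0.0916).

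Upstream sequence was compared for the helicase pair and for a pair of eIF3 subunits that also parted, Eif3k and Eif3a. Each line below runs 5′ to 3′ over the 250 bases before the RefSeq start on build GRCm38.p6, and capitals mark the E-box CACGTG, a site that Myc and related factors can bind, which reads the same on both strands.
Eif4a1 (chr11:69672424-69672673, minus strand): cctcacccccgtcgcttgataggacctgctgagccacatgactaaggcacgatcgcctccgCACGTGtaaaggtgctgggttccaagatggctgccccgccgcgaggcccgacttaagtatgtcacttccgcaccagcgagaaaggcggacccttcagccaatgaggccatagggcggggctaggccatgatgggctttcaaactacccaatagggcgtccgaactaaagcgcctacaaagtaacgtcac
Eif4a2 (chr16:23107218-23107467, plus strand): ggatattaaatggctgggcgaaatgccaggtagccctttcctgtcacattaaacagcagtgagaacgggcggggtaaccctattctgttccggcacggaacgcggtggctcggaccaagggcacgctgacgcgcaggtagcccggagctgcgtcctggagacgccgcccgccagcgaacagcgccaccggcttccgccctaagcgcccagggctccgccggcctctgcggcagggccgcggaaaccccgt
Eif3k (chr7:28981889-28982138, minus strand): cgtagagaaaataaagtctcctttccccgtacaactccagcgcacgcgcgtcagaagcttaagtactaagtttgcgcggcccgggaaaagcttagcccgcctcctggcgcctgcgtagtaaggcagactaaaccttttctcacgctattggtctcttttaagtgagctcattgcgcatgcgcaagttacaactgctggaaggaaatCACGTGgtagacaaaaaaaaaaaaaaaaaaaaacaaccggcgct
Eif3a (chr19:60790694-60790943, minus strand): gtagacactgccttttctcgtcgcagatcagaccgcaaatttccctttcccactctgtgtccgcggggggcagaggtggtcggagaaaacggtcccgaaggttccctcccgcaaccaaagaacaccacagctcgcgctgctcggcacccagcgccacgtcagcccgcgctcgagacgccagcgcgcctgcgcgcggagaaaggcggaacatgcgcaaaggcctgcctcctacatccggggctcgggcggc
The E-box was found upstream of Eif4a1 and Eif3k, both higher in terminal end buds than in ducts, and these letters are not in the windows of Eif4a2 and Eif3a, both lower. These 4 genes were chosen after their values were seen. Eif4a3 and Eif4e2, called in the same direction as Eif4a1 and Eif3k, have matched promoters without the E-box. RefSeq promoters were matched for 32 of the 40 genes. An E-box lay upstream of 6 of these, Eif3f, Eif3k, Eif4a1, Eif4e, Eif4h and Eif5a, which is 18.8% against 6.86% of the 27025 genes in the table. Counted on both strands in the same windows, the ETS motif CCGGAAGT lay upstream of 4 (12.5% against 3.23%), namely Eif3d, Eif3l, Eif4e2 and Eif5a. The TATA motif TATAAA lay upstream of 3 (9.38% against 14.3%). Genes with several RefSeq starts were counted if any window held the motif, none of the motifs holds another, and a match is a description of letters only. Eif4e, Eif3f and Eif4h hold the E-box without being called between the structures.

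The remaining eIF4F relatives held the largest single difference. Eif4e3, a divergent cap-binding relative of eIF4E, read -2.24, -1.42 and -1.26 (lowest, median, highest) in terminal end buds, against -0.84, -0.73 and -0.39 in ducts. All 12 arrays were below stroma, and the groups did not overlap. Terminal end buds were 2.99-fold below stroma (-1.58, SE 0.11, adjusted p = 3.32e-08) and ducts 1.62-fold (-0.70, SE 0.11, adjusted p = 0.000228). The difference between the structures, -0.88 (SE 0.15, adjusted p = 0.00104), shrank to -0.36 (adjusted p = 0.169) under quantile normalization. Eif4e itself, the main cap-binding protein, averaged -0.04 ± 0.32 in terminal end buds and 0.05 ± 0.24 in ducts (SD, n = 6 each) and was not called in any comparison. The scaffold Eif4g3 averaged 0.05 ± 0.07 and 0.04 ± 0.19 in the same order and was not called. Eif4g2, or DAP5, a scaffold relative that lacks the eIF4E site, was lower than stroma on its first probe, at -0.33 (SE 0.09, adjusted p = 0.0065) in terminal end buds and -0.27 (SE 0.09, adjusted p = 0.0344) in ducts. Its other probe read -0.17 (adjusted p = 0.214) in terminal end buds and 0.08 (adjusted p = 0.632) in ducts, neither called. With the mean of both probes Eif4g2 was still lower than stroma in terminal end buds (-0.25, adjusted p = 0.0295) and no longer in ducts (adjusted p = 0.465). The duct call also ended without duct replicate 1, 3, 5 or 6 (adjusted p up to 0.121).

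The helicase helpers were higher than stroma in both structures, and the exon junction helicase in terminal end buds. Eif4b, which stimulates eIF4A, read 0.37, 0.55 and 0.81 (lowest, median, highest) in terminal end buds, against 0.57, 0.71 and 0.92 in ducts. All 12 arrays were above stroma, and the 1.48-fold and 1.64-fold ratios were both called (adjusted p = 3.86e-06 in terminal end buds and 1.75e-06 in ducts). The groups overlapped, and the difference of -0.15 (SE 0.09, adjusted p = 0.288) was not called. Under quantile normalization Eif4b was called lower in terminal end buds than in ducts (adjusted p = 0.00737). Eif4h, the other helper, averaged 0.38 ± 0.29 in terminal end buds and 0.23 ± 0.05 in ducts (SD, n = 6 each), both called (adjusted p = 0.00151 and 0.0468). The duct call ended under centring on array medians and without any 1 of the 6 duct arrays or of terminal end bud replicates 1, 3, 4 and 5 (adjusted p up to 0.0998). Eif4a3 read 0.34, 0.72 and 0.91 in terminal end buds, against 0.04, 0.16 and 0.25 in ducts. It was called against stroma in terminal end buds (adjusted p = 4.25e-06) and not in ducts (adjusted p = 0.141). Its groups did not overlap, and the difference was 0.50 (SE 0.10, adjusted p = 0.00363).

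The eIF4E-binding proteins hold eIF4E away from the scaffold until mTORC1 releases it. Eif4ebp1 averaged 0.01 ± 0.09 in terminal end buds and 0.08 ± 0.21 in ducts (SD, n = 6 each) and was not called. Eif4ebp2 was above 0 on all 6 terminal end bud arrays, from 0.04 to 0.73 (mean 0.27, SE 0.10, adjusted p = 0.0337), against -0.50 to 0.12 in ducts (adjusted p = 0.553). The groups overlapped and their difference was not called (0.36, SE 0.14, adjusted p = 0.0872). The terminal end bud call ended without terminal end bud replicate 2, 4 or 5 and under quantile normalization, a common median absolute deviation or a fit of that group alone (adjusted p up to 0.132). Eif4enif1, the shuttling protein 4E-T, averaged -0.02 ± 0.16 in terminal end buds and 0.07 ± 0.20 in ducts and was not called.

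The eIF3 subunits were called in both directions between the structures. Of 12 subunits 8 were higher and 2 lower than stroma in terminal end buds, while 9 were higher and 0 lower in ducts (limma; 1 was lower at an unadjusted p under 0.05). That is 83.3% of the subunits called in terminal end buds and 75.0% in ducts, where 43.6% and 28.2% of all probes were called, and the 16.7% lower in terminal end buds lay near the 20.4% of all probes. The medians were 0.33 in terminal end buds and 0.32 in ducts. Between the structures 2 were higher in terminal end buds, Eif3i and Eif3k, and 4 were lower, Eif3a, Eif3e, Eif3j1 and Eif3m, where 18.7% of all probes were called.

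**Figure D3:**
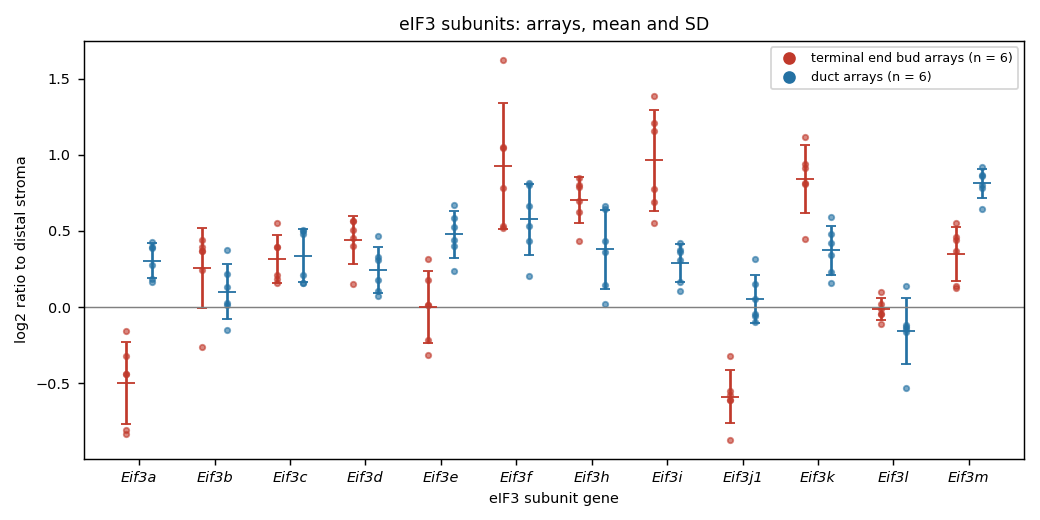
Log2 ratio to distal stroma of the 12 eIF3 subunit genes on 6 terminal end bud arrays (red, left of each pair) and 6 duct arrays (blue, right). Points are arrays, dashes are means and error bars are SD. Eif3a and Eif3j1 lie below stroma on all terminal end bud arrays, and Eif3i and Eif3k lie higher in terminal end buds than in ducts.

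Eif3i, a WD-repeat subunit, read 0.55, 0.97 and 1.39 (lowest, median, highest) in terminal end buds, against 0.10, 0.34 and 0.42 in ducts. The groups did not overlap, and terminal end buds were 1.6-fold above ducts (0.67, SE 0.14, adjusted p = 0.00296). Its call against stroma in ducts (adjusted p = 0.0369) ended under centring and without duct replicate 1, 2, 4, 5 or 6 (adjusted p up to 0.102). Eif3k, of the octameric core, read 0.45, 0.87 and 1.11 in terminal end buds, against 0.16, 0.38 and 0.59 in ducts. One terminal end bud array fell inside the duct range, and the difference of 0.47 (SE 0.11, adjusted p = 0.00819) was no longer called under quantile normalization or a common median absolute deviation (down to 0.28, adjusted p up to 0.142). Eif3f and Eif3h, the MPN-domain subunits of the core, were also high. Eif3f averaged 0.93 ± 0.41 in terminal end buds and 0.58 ± 0.23 in ducts, with terminal end bud replicate 2 at 1.62 as the highest reading of any member. Eif3h averaged 0.70 ± 0.15 in terminal end buds and 0.38 ± 0.26 in ducts. Both were above stroma on all 12 arrays, and neither difference was called (adjusted p = 0.203 and 0.0779). That of Eif3h was called with a slide term and without terminal end bud replicate 1 or duct replicate 3 or 6 (adjusted p down to 0.0303).

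Eif3a, the largest core subunit, was below stroma on all 6 terminal end bud arrays and above it on all 6 duct arrays. Its readings were -0.83, -0.44 and -0.16 (lowest, median, highest) in terminal end buds, against 0.17, 0.33 and 0.43 in ducts. The difference of -0.80 (SE 0.12, adjusted p = 0.00028) corresponds to 1.75-fold and had the lowest adjusted p of the eIF3 subunits. Eif3j1, which encodes a loosely held subunit and has a close copy in the mouse genome whose signal the array may not separate, read -0.87, -0.59 and -0.32 in terminal end buds, against -0.10, 0.00 and 0.32 in ducts. The groups did not overlap, and the difference was -0.64 (SE 0.10, adjusted p = 0.000459). Eif3m was above stroma in both structures but lower in terminal end buds, at 0.13, 0.40 and 0.56, against 0.65, 0.83 and 0.92 in ducts. The groups did not overlap, and the duct mean of 0.81 (SE 0.06, adjusted p = 5.77e-07) was the highest among the 40 genes there. Eif3e, once described as the viral integration site Int6 in mouse mammary tumours, averaged -0.003 ± 0.24 in terminal end buds, against 0.48 ± 0.15 in ducts. Its ranges overlapped, and the difference was -0.48 (SE 0.11, adjusted p = 0.00785).

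The other subunits were not called between the structures. Eif3c averaged 0.31 ± 0.16 in terminal end buds and 0.34 ± 0.17 in ducts, and Eif3d, which can bind the cap of selected mRNAs, 0.44 ± 0.16 and 0.24 ± 0.15 in the same order. Both were above stroma on all 12 arrays and were called in both structures, Eif3d in ducts no longer without duct replicate 6 (adjusted p = 0.0538). Eif3b, the RNA-binding subunit that partners Eif3i, averaged 0.26 ± 0.26 in terminal end buds (adjusted p = 0.0273), with terminal end bud replicate 5 at -0.26, and 0.10 ± 0.18 in ducts (adjusted p = 0.434). Its terminal end bud call ended without any 1 of the other 5 terminal end bud arrays and under the same 3 alternatives as that of Eif4ebp2 (adjusted p up to 0.0869). Eif3l averaged -0.01 ± 0.07 in terminal end buds and -0.16 ± 0.22 in ducts and was not called.

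**Figure D4:**
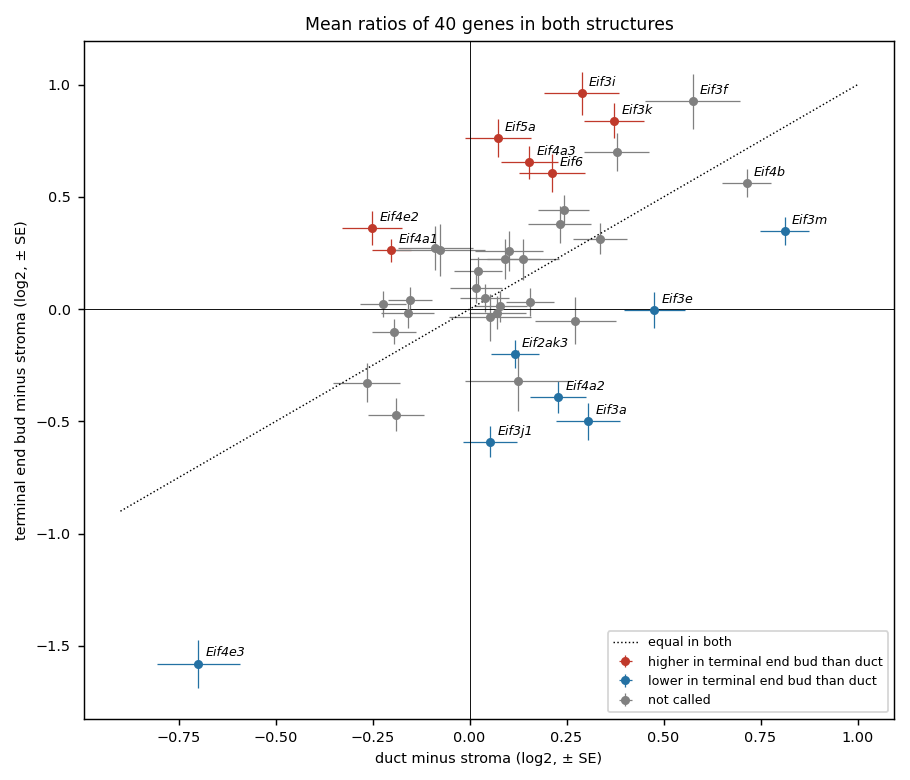
Mean log2 ratio to stroma of the 40 genes in terminal end buds (vertical axis) and in ducts (horizontal axis), with the standard error of the limma fit; colours mark the 7 genes called higher and the 7 called lower in terminal end buds than in ducts, and both axes share the stromal partner. Eif4a1 and Eif4e2 lie above 0 on the vertical and below 0 on the horizontal axis, and Eif4a2 and Eif3a the other way round.

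Eif5a and Eif6 act at the edges of initiation. Eif5a, a factor that carries the modified lysine hypusine and helps ribosomes through elongation and termination, read 0.41, 0.67 and 1.13 (lowest, median, highest) in terminal end buds, against -0.04, 0.05 and 0.22 in ducts. The groups did not overlap. Terminal end buds were 1.69-fold above stroma (0.76, SE 0.09, adjusted p = 4.23e-06), ducts were not called (adjusted p = 0.578), and the difference was 0.69 (SE 0.12, adjusted p = 0.00115). Eif6, which keeps the large subunit from joining early and serves in its maturation, averaged 0.61 ± 0.28 in terminal end buds and 0.21 ± 0.12 in ducts on its first probe (SD, n = 6 each). The difference of 0.39 (SE 0.12, adjusted p = 0.0324) was not called under quantile normalization, a common median absolute deviation, or without terminal end bud replicate 1, 2 or 5 or duct replicate 1, 3 or 5, or with the mean of both probes (adjusted p up to 0.129). Its other probe read -0.02 ± 0.21 in terminal end buds and -0.10 ± 0.22 in ducts and was not called, so the probes disagree on Eif6.

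Of the eIF2 and eIF2B genes only Eif2b4 was called, in terminal end buds against stroma. None of the 3 measured eIF2 genes passed in any of the 3 comparisons by limma, where 1 of them had an unadjusted p under 0.05 in each comparison. Of all probes 43.6% were called in terminal end buds, 28.2% in ducts and 18.7% between the structures. With 3 genes in each group, a departure from these shares cannot be read. Eif2s2, the beta subunit, averaged -0.05 ± 0.35 in terminal end buds and 0.27 ± 0.18 in ducts. It was called higher than stroma in ducts under quantile normalization, with a slide term and in a fit of that group alone. The same held without duct replicate 1 or terminal end bud replicate 2 or 3 (adjusted p down to 0.0191). Eif2s3x, the gamma subunit on the X chromosome, averaged 0.22 ± 0.30 and 0.14 ± 0.16 in the same order. Its Y-linked copy Eif2s3y read 0.10 ± 0.15 and 0.02 ± 0.16 on 1 probe and 0.14 ± 0.27 and -0.05 ± 0.38 on the other. Since the sources used here do not give sex, it is not known whether these readings come from Eif2s3y itself. Of the 3 eIF2B genes Eif2b4, the delta subunit, was higher than stroma in terminal end buds (0.17, SE 0.06, adjusted p = 0.0374), a call that ended under centring, quantile normalization, a common median absolute deviation, a fit of that group alone and without terminal end bud replicate 1, 3, 5 or 6 (adjusted p up to 0.131). Eif2b1 averaged 0.04 ± 0.10 in terminal end buds and -0.15 ± 0.14 in ducts, and Eif2b2 0.26 ± 0.43 and -0.08 ± 0.10, neither called. Eif2b2 read -0.55 in terminal end bud replicate 3. Without that array or with weights per array it was called higher than stroma in terminal end buds (adjusted p down to 0.000206). Its difference was also called without that array (adjusted p = 0.00219). Eif2b1 was called lower than stroma in ducts under centring, quantile normalization, a common median absolute deviation or without duct replicate 5 (adjusted p down to 0.0203).

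Of the 4 eIF2 kinases 2 were lower than stroma in terminal end buds and 1 in ducts, where 20.4% and 12.2% of all probes were lower. Eif2ak2, or PKR, the kinase that senses double-stranded RNA, read -0.73, -0.44 and -0.25 (lowest, median, highest) in terminal end buds, against -0.37, -0.25 and 0.11 in ducts. It was called lower than stroma in terminal end buds (-0.47, SE 0.07, adjusted p = 9.46e-05) and not in ducts (adjusted p = 0.0686), and the difference itself was not called (-0.28, SE 0.10, adjusted p = 0.0776). In ducts it was called under centring, quantile normalization or a common median absolute deviation. It was also called there with weights per array, with a slide term and without duct replicate 3. Over these alternatives the adjusted p in ducts went down to 0.0226. The difference was called with a slide term and without terminal end bud replicate 4 (adjusted p down to 0.0483). Eif2ak3, or PERK, the kinase of endoplasmic reticulum stress, averaged -0.20 ± 0.16 in terminal end buds and 0.12 ± 0.11 in ducts, a difference of -0.32 (SE 0.09, adjusted p = 0.0207). Its call against stroma in terminal end buds (adjusted p = 0.0172) ended without terminal end bud replicate 2, 4 or 5 (adjusted p up to 0.0672). Eif2ak1, the haem-regulated kinase, was lower than stroma in ducts (-0.19, SE 0.06, adjusted p = 0.018), where all 6 arrays were below 0, and averaged -0.10 ± 0.15 in terminal end buds (adjusted p = 0.166). Eif2ak4, or GCN2, which senses uncharged tRNA, averaged 0.03 ± 0.17 in terminal end buds and 0.16 ± 0.08 in ducts and was not called.

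The eIF1A relatives belong to the scanning step. Eif1ax averaged 0.22 ± 0.32 in terminal end buds and 0.09 ± 0.09 in ducts. Eif1a averaged -0.32 ± 0.37 in terminal end buds and 0.12 ± 0.38 in ducts, with duct replicate 3 at -0.65 and the other 5 duct arrays between 0.20 and 0.37. Neither was called. Without duct replicate 3 Eif1a was called lower in terminal end buds than in ducts (adjusted p = 0.0188). It was called lower than stroma in terminal end buds with weights per array and without terminal end bud replicate 3 or 4 or duct replicate 3 (adjusted p down to 0.025). Eif1ax was called higher than stroma there with a slide term and without terminal end bud replicate 2 (adjusted p down to 0.00896). Eif1ad, a protein with an eIF1A domain, was lower than stroma in ducts (-0.22, SE 0.06, adjusted p = 0.0119) on all 6 arrays and averaged 0.02 ± 0.12 in terminal end buds (adjusted p = 0.797).

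Slide numbers in the labels ran from 190 to 203, with a gap between 193 and 196 and 2 arrays of each structure before it. The labels do not say what the numbers stand for. All 14 genes called between the structures had a difference of the same sign in both sets of slides. They were called on these same 12 arrays, so a shared sign was favoured by that choice and is no separate evidence. In 12 of the 14 the difference was larger in slides up to 193, as it was in 18 of the 26 genes not called. On those 2 and 2 arrays alone 6 of the 14 were called, and on the 4 and 4 arrays from 196 on 9 were called, with only Eif3a and Eif5a called in both. The difference in Eif3a was -1.15 in the earlier and -0.63 in the later slides, in Eif5a 0.87 and 0.60, in Eif4a1 0.50 and 0.45, in Eif4e2 0.60 and 0.62, and in Eif3i 0.70 and 0.66. Those in Eif3e (-0.89 and -0.27), Eif3k (0.83 and 0.29), Eif4a3 (0.80 and 0.35) and Eif6 (0.74 and 0.22) were over 2 times as large in the earlier slides and were not called in the later ones. Of the 26 genes that were not called, 8 changed sign between the sets, among them Eif2s3x (-0.34 and 0.30) and Eif4g2 (-0.44 and 0.13).

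**Figure D5:**
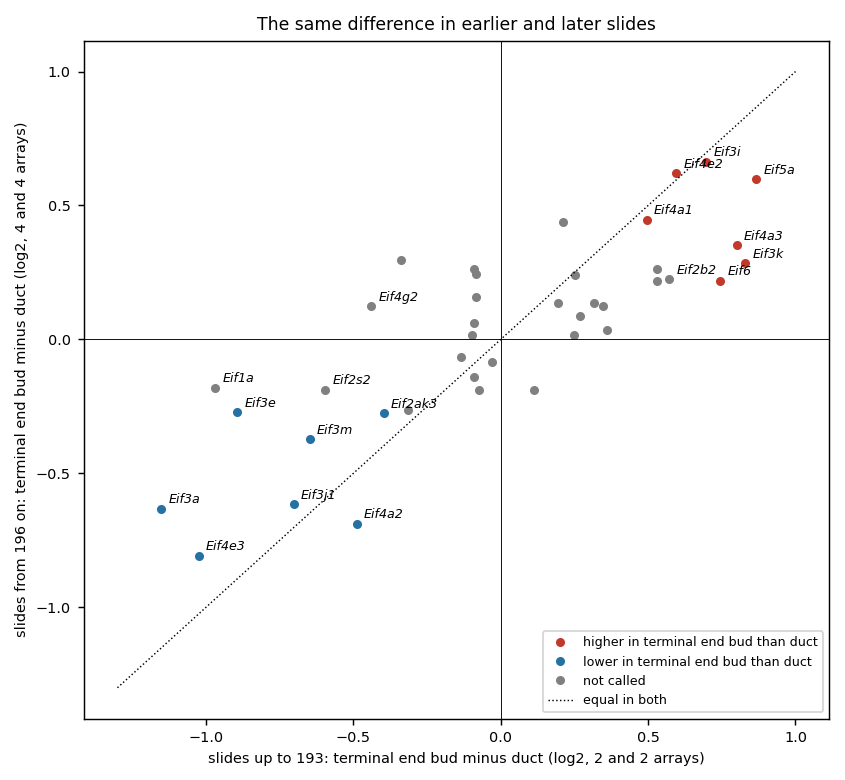
Difference of terminal end bud and duct (log2) of the 40 genes in slides up to 193 (horizontal axis, 2 and 2 arrays) and in slides from 196 on (vertical axis, 4 and 4 arrays); the dotted line marks equal values. All 14 called genes keep their sign, but they were called on these same arrays. Of them 12 differ more in the earlier slides, as do 18 of the 26 genes not called.

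Terminal end bud arrays also parted by slide. In 14 of the 40 genes (35.0%) the earlier terminal end bud slides did not overlap the later ones, 5 with the earlier higher and 9 with the earlier lower, where this held for 19.2% of all probes (8.86% higher and 10.4% lower). Eif1a averaged -0.66 on the earlier terminal end bud slides and -0.15 on the later, Eif2s2 -0.42 and 0.13, and Eif3e -0.27 and 0.13. Eif6 ran the other way with 0.91 and 0.46. In ducts 9 of 40 genes (22.5%) were so split, 3 with the earlier higher and 6 lower, close to the 21.6% of all probes (8.37% higher and 13.2% lower). Eif4a2 was among those with the earlier lower. The spot read for it averaged 0.0165 on the earlier duct slides, close to stroma, and 0.335 on the later.

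Other parts of the translation machinery were read from lists of genes that the name rule does not take, 1 probe each. Of 15 elongation and termination genes 9 were higher and 2 lower than stroma in terminal end buds, and 5 were higher and 1 lower in ducts. That is 60.0% and 13.3% in terminal end buds, against 23.2% and 20.4% of all probes. In ducts it is 33.3% and 6.67%, against 16.0% and 12.2%. Eef1a1, the tRNA carrier of elongation, stood at 2.25 (SE 0.18) in terminal end buds and 1.43 (SE 0.18) in ducts, and its exchange factor Eef1b2 at 1.07 and 0.98. Abce1, which recycles ribosomes, was at -0.46 in terminal end buds and not called in ducts (0.12). Between the structures 4 of the 15 were higher in terminal end buds, led by Eef1a1 at 0.83 and the release factor Gspt1 at 0.42, and Abce1 was lower at -0.58. That is 26.7% and 6.67%, against 8.32% and 10.4% of all probes. The list's median was 0.27 in terminal end buds and 0.11 in ducts.

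Partners of initiation outside the name rule were more often lower than stroma in terminal end buds. Of 16 measured genes 2 were higher and 7 lower there, and 1 was higher and 3 lower in ducts. In terminal end buds that is 12.5% and 43.8%, against 23.2% and 20.4% of all probes. In ducts it is 6.25% and 18.8%, against 16.0% and 12.2%. With 1 and 3 genes called in ducts, a departure from these shares cannot be read. Pabpc1, the poly(A)-binding protein, was higher in both (0.49 and 0.29), and Paip1, which stimulates initiation through Pabpc1, was higher in terminal end buds (0.26). The helicase Ddx3x at -1.11 and Paip2, a repressor of Pabpc1, at -0.59 were the lowest in terminal end buds, and both were lower there than in ducts (-0.93 and -0.59).

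Genes of the mTORC1 pathway went both ways. Of 19 measured genes 3 were higher and 5 lower than stroma in terminal end buds, and 2 were higher and 7 lower in ducts, with medians of -0.04 and -0.08. The 42.1% called in terminal end buds lay near the 43.6% of all probes, and 47.4% were called in ducts, against 28.2%. The kinase Mtor stood at -1.08 (SE 0.09) in terminal end buds and -0.62 (SE 0.09) in ducts, and its inhibitor Deptor at -1.98 (SE 0.23) and -0.77 (SE 0.23). The Rag GTPase Rragd was the highest in terminal end buds at 0.71. The list of the integrated stress response holds regulators of eIF2 phosphorylation, such as Ppp1r15a and Impact, beside target genes. Counts over it therefore do not give the output of the pathway. Of its 16 measured genes 10 were lower and 3 higher than stroma in terminal end buds, against 3 lower and 2 higher in ducts. In terminal end buds that is 62.5% and 18.8%, against 20.4% and 23.2% of all probes. The 31.2% called in ducts lay near the 28.2% of all probes. Atf4 was among the genes higher than stroma in both, at 0.31 in terminal end buds (adjusted p = 0.0017) and 0.29 in ducts (adjusted p = 0.0052). Ppp1r15a, the stress-induced subunit of the eIF2 phosphatase, was at -0.865 and the target gene Asns at -0.84 in terminal end buds, while the adaptor Nck2 was at 1.33. Between the structures 6 of the 16 were lower in terminal end buds and 1 higher, with Ppp1r15a at -0.86 and Impact, an inhibitor of GCN2, at -0.76 lower and Atf3 at 0.60 higher. That is 37.5% lower and 6.25% higher, against 10.4% and 8.32% of all probes.

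Of 17 measured cytosolic tRNA synthetase genes 6 were higher and 3 lower than stroma in terminal end buds, and 2 were higher and 0 lower in ducts (limma; 1 was lower at an unadjusted p under 0.05). In terminal end buds 35.3% were higher and 17.6% lower, against 23.2% and 20.4% of all probes, and in ducts 11.8% were called, against 28.2%. Vars led with 0.97 in terminal end buds and 0.36 in ducts, followed in terminal end buds by Kars at 0.57, while Eprs stood at -0.44. All 4 measured mitochondrial translation factors were lower than stroma in both structures, led by the elongation factor Gfm1 at -1.39 in terminal end buds and -0.96 in ducts. Of all probes 20.4% were lower in terminal end buds and 12.2% in ducts. The mitochondrial initiation factor Mtif2 was also lower in terminal end buds than in ducts (-0.52).

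The dissected tissues bore the markers of their labels, and the means of the fat and endothelial markers lay below stroma on every array. All 11 luminal markers were higher than stroma in both structures, and 6 of 8 basal markers in terminal end buds and 8 of 8 in ducts. Between the structures 4 of the 11 luminal markers were higher in terminal end buds and 4 of the 8 basal markers lower, with medians of 0.38 and -0.83 and with Myh11 at -2.16 and Cnn1 at -1.78. The mean over the 10 white fat markers ran from -1.6 to -1.03 on terminal end bud arrays and from -0.491 to -0.311 on duct arrays, with 9 and 3 of them lower than stroma. The 7 brown fat markers ran from -2.81 to -2.09 on terminal end bud arrays and from -2.2 to -0.964 on duct arrays, and the 9 endothelial markers from -1.44 to -0.995 and from -0.611 to -0.168. The 12 proliferation markers ran from 0.968 to 1.79 on terminal end bud arrays and from -0.000167 to 0.986 on duct arrays. Of these 11 were higher and 1 lower than stroma in terminal end buds, and 5 were higher and 1 lower in ducts. Ccnb2 was the lower one in both (-0.60 and -0.68). Of 10 fibroblast markers 5 were higher than stroma in terminal end buds and 7 in ducts. The part of these cell types in the ratios of the initiation factors was not tested, and in bulk tissue fewer cells of a type and less RNA per cell cannot be told apart.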

How the data were processed

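The deposited values were log2 ratios of the Cy5 channel (epithelium) over the Cy3 channel (distal stroma), per the labels. As deposited they were centred near 0, with array medians between 0.01 and 0.023. The scanner, background correction, normalization and log base are given in none of the sources used, and base 2 was assumed. Probe names came from the platform annotation, in which 14136 of 17589 probes had 1 gene symbol. Of all probes 129 lacked 1 value, none of them a member.

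All comparisons used limma 3.58.1 in R 4.3.3 with 1 fit of 2 group means over the 12 arrays, two-sided moderated tests, and Benjamini-Hochberg adjustment over all probes with a threshold of 0.05. The fit was tested on simulated data. A gene with several probes was read from the one with most values, then the first in the table. SD is between arrays and SE is from the fit. Replicate numbers only name arrays in the order of their records.

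The members and the gene lists were chosen with earlier results of these data known. Any member could be named, and from each list up to 2 called genes per direction and comparison, not all of which are printed. Promoter sequences were RefSeq windows on GRCm38.p6. The alternatives were centring, quantile normalization, a common median absolute deviation, probes with all values, a trended robust variance, weights per array, a block of neighbouring slides, a slide term, each group alone, each array left out in turn, a minimum size and averaging the probes of each gene.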

Additional observations from a re-analysis of the deposited data

Results flagged for a closer look

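Single arrays stood apart from the other 5 of their group in 6 of 118 sets of 6 readings, by a gap wider than Dixon's 95% limit, and chance alone gives about 1 in 20. Eif1a read -0.65 in duct replicate 3, Eif4e3 -0.39 in duct replicate 3, and Eif4ebp1 0.50 in duct replicate 4. Eif3b read -0.26 in terminal end bud replicate 5. Of the Eif4a2 spots, probe 16235 read 0.065 in duct replicate 2 and probe 17747 read -0.94 in terminal end bud replicate 2.

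The ratio to stroma differed between terminal end bud and duct, by the limma test of the difference itself, in 14 genes. The difference of terminal end bud minus duct was positive for Eif5a (0.69), Eif3i (0.67), Eif4e2 (0.61), Eif4a3 (0.50), Eif3k (0.47), Eif4a1 (0.46) and Eif6 (0.39). It was negative for Eif4e3 (-0.88), Eif3a (-0.80), Eif3j1 (-0.64), Eif4a2 (-0.62 on the spot read for the gene), Eif3e (-0.48), Eif3m (-0.46) and Eif2ak3 (-0.32).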

How the results depend on the processing

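Counted over the 59 probes, terminal end buds against stroma gave 17 higher and 22 lower, ducts against stroma 25 and 6, and terminal end buds against ducts 7 and 23. Leaving out 1 array moved these counts to between 15 and 17, 21 and 24, 19 and 26, 5 and 6, 6 and 8, and 23 and 24. With 1 probe read per gene, an alternative added after seeing the data, the lower count in terminal end buds was 7, the higher count in ducts 12 and the lower count between the structures 7, since 17 Eif4a2 spots then count once, and averaging the probes of each gene gave 7, 12 and 7. Calls of at least 0.5 in size numbered 8 and 4 in terminal end buds and 3 and 1 in ducts against stroma, and 4 probes were higher between the structures. Slides up to 193 alone, also added later, gave 4 higher and 0 lower in ducts by limma, and 4 higher and 5 lower between the structures. Slides from 196 on gave 2 lower in ducts and 4 higher between the structures. These sets hold fewer arrays. Of single members, the Eif6 probe near -0.02 took the sign of its gene's mean (0.29), and Eif4a2 probe 17745 in ducts stood at -0.037 (adjusted p = 0.856) on slides up to 193 alone. The labels number no replicates, so the pairing tried was by neighbouring slides, each pair with 1 array of each structure. As a block (correlation 0.0726) it gave 8 higher and 23 lower between the structures. Without signal over background, dim probes could not be told from unchanged ones.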
